A study of Mus musculus with 13 samples.

Results

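The genes described here encode the enzymes that write and erase methyl and acetyl groups on chromatin, in Neuro2a, a mouse neuroblastoma cell line that grows fast and keeps neuron-like features. They were chosen by name and by the mark each enzyme handles, with no threshold on expression: 49 genes of the 34857 in the deposited tables, all of which were found. They comprise the DNA methyltransferases with Uhrf1 and the TET dioxygenases, writers and erasers of histone H3 methylation (H3K4, H3K9, H3K27, H3K36 and H3K79), 4 histone acetyltransferases and 14 deacetylases. The study asked how cells that live through a failure of liquid nitrogen storage differ from cells stored normally.

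Every vial had been frozen in medium with 10% DMSO, a cryoprotectant, and every culture was grown in the same serum-containing medium. In the experimental groups the nitrogen was lost over 10 h. Those vials then spent 24 h at 4 °C and 72 h at -80 °C before they were thawed at 37 °C and plated. The control groups stayed in undisturbed storage and went through the same thaw. RNA was collected at passage 1, soon after the surviving cells had returned to rapid growth (3 control and 4 experimental libraries), and at passage 6, when the cells looked normal (3 and 3). Nothing in the labels tells if the libraries within a group came from different vials or dishes, so p-values measure only the spread between these libraries, which may be technical. All groups are a single tumour line, and no genotype or drug differs between them.

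Chromatin enzymes work in opposing pairs. DNA methyltransferases place methyl groups on cytosine, Uhrf1 guides the maintenance enzyme Dnmt1 to newly copied DNA, and TET enzymes oxidise the methyl group so that it can be lost. Trimethylation of H3K4 marks active promoters, H3K27 methylation by the polycomb complex PRC2 and H3K9 methylation accompany silencing, and H3K36 methylation by Setd2 is laid down along transcribed genes. Acetylation by Ep300 and Crebbp is found at active enhancers, and deacetylases remove it. The JmjC-domain demethylases and the TET enzymes use oxygen, iron and 2-oxoglutarate, Kdm1a uses FAD, and the sirtuins use NAD+, so these families draw on the metabolic state of the cell.

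Values are FPKM as the authors deposited them, a unit that divides fragments by transcript length and library size. Each library had 12014 to 12467 genes at 1 FPKM or more, and the number of reads behind a value is unknown. Transcripts of other tissues were present in some libraries. The summed FPKM of 20 colon epithelium markers was 457, 207 and 223 in passage 1 controls and 193, 175, 8.11 and 84.8 in experimental libraries 1 to 4. At passage 6 it was 112, 215 and 254 in controls and 107, 8.17 and 9.04 in experimental libraries 1 to 3. Between 15 and 20 of these 20 markers reached 1 FPKM in every library except passage 1 experimental 3 and passage 6 experimental 2 and 3, where 2 or 3 did and Reg3g and Cdx1 were at 0. Cartilage markers (14 genes) summed to 12.9, 57 and 55.3 FPKM in passage 1 controls against 39.2, 40.1, 44.1 and 16.7, with 2 markers at 1 FPKM or more in control 1 and experimental 4 and 8 to 11 in the others. At passage 6 their sums were 40.3 to 64.6 in controls and 22.3 to 26.7 in experimental libraries. Liver markers (12 genes, Alb among them) summed to 196 and 157 FPKM in passage 6 experimental 2 and 3, where 9 reached 1 FPKM, and to at most 1.19 in the other 11 libraries, where Alb was at 0. Brain and myelin markers summed to 75.6 and 60.6 in those same libraries, with no marker at 0, and to between 22.8 and 31 elsewhere, where Cldn11 was at 0.

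At passage 1, the members that changed were mostly higher in the cells that had survived the storage failure. In all, 9 of the 47 members tested rose: the demethylase genes Kdm5b and Kdm3a, the acetyltransferase genes Ep300 and Crebbp, the H3K36 methyltransferase gene Setd2, and the deacetylase genes Hdac1, Hdac4, Hdac7 and Hdac9. The deacetylase gene Sirt6 fell. A gene counts as risen or fallen where limma, on log2(FPKM + 1), gave an adjusted p (Benjamini-Hochberg over all genes tested) under 0.05. Fold changes are on that scale, so the added 1 FPKM makes them smaller than the ratio of FPKM for low genes. Among all 12469 genes tested, 11.5% rose and 18.9% fell, 30.4% in all, so the 9 risen members (19.1%) stand beside 11.5% and the 1 fallen (2.13%) beside 18.9%. The median log2 change was 0.064 over the members and -0.053 over all genes. Tet1 (0.0203 to 0.15 FPKM) and Hdac8, a class I deacetylase gene (0.205 ± 0.0653 to 0.621 ± 0.134 over the group means, SD), stayed under 1 FPKM in every library and were not tested, whereas each of the other 47 was at 1 FPKM or more in all 13 libraries.

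The split between risen and fallen genes depends on how libraries are scaled against each other. With the deposited values 37.8% of all calls at passage 1 were higher. That share was 48.9% after setting equal FPKM totals, 50.2% after quantile normalization and 55.7% after median-of-ratios scaling. The members' own counts were 11 higher and 1 lower, 11 and 2, and 12 and 1 under these scalings, and the 10 calls named above held in each. FPKM in bulk RNA cannot tell fewer cells that carry a transcript from less of it per cell.

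**Figure D1:**
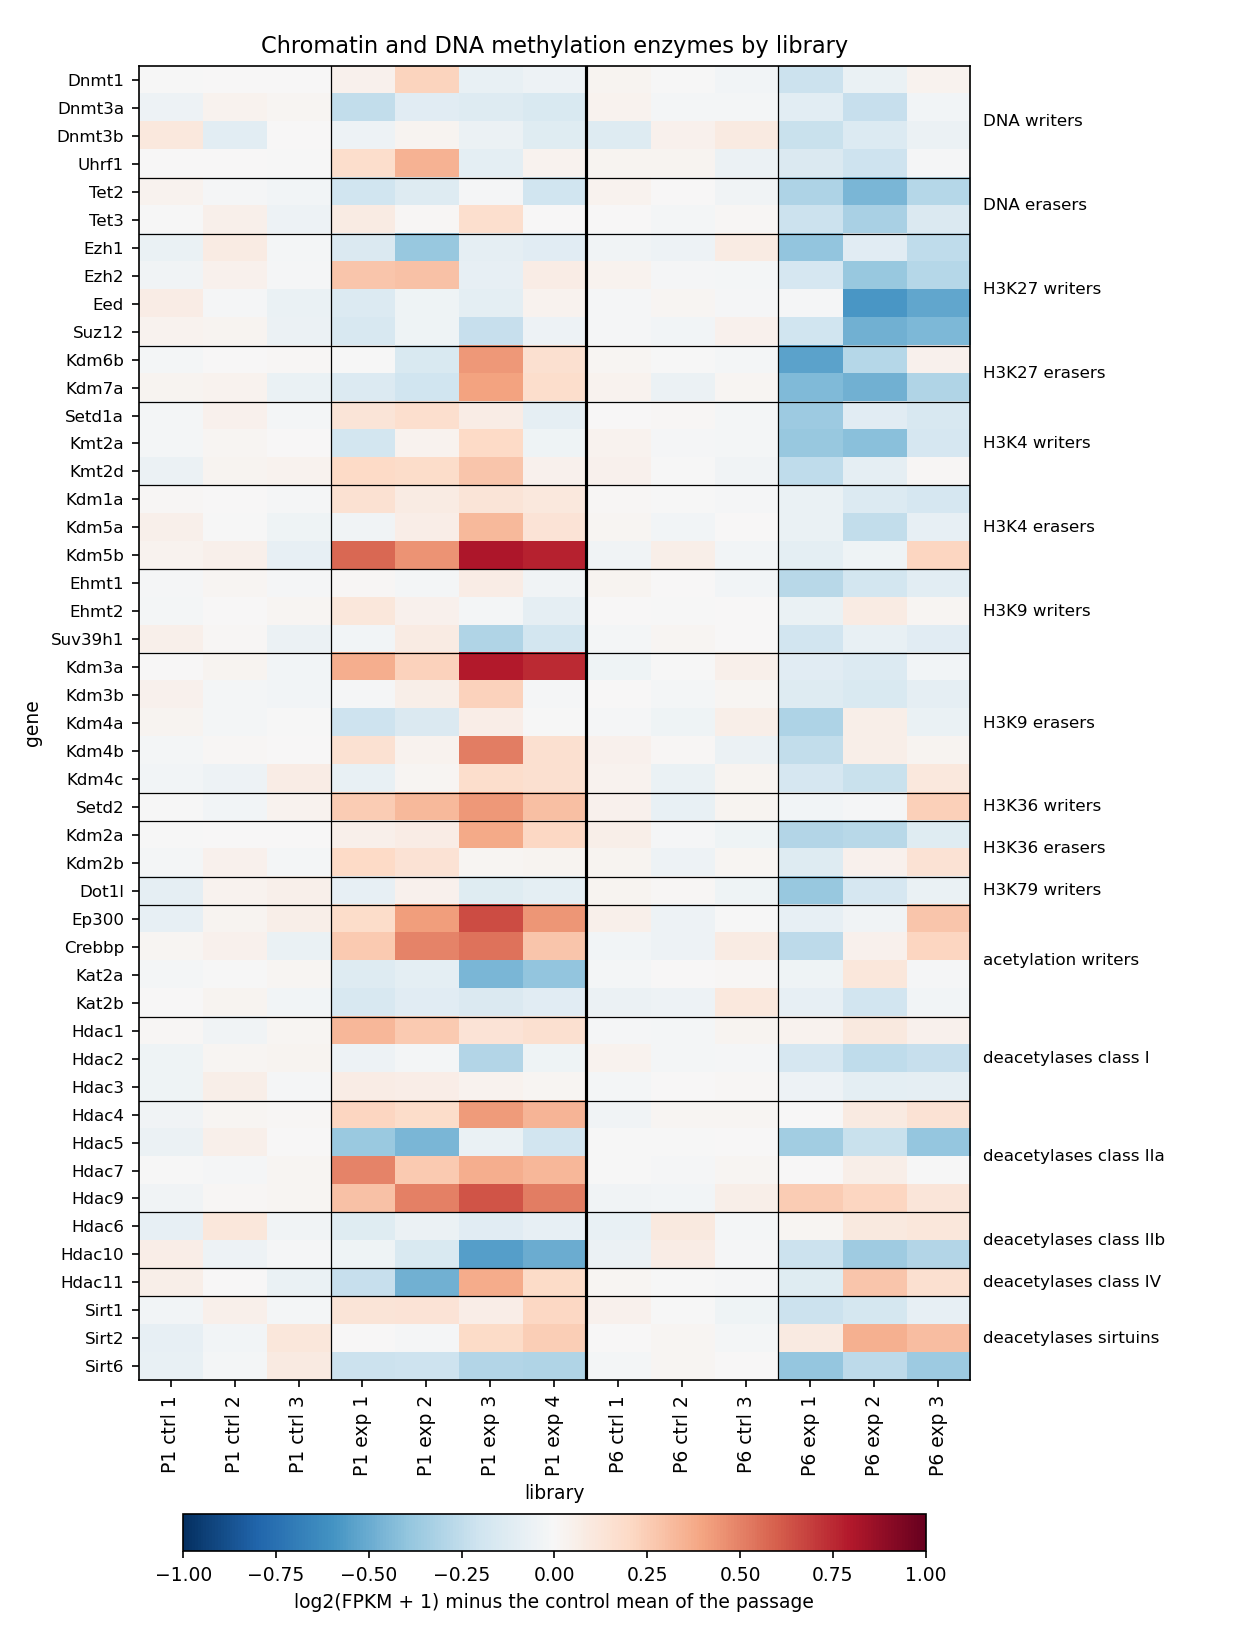
Each row is a member tested at both passages and each column a library. Colour is log2(FPKM + 1) minus the mean of the controls of the same passage. Kdm5b and Kdm3a are the reddest rows among the passage 1 experimental libraries, and the passage 6 experimental libraries are mostly blue, with 41, 34 and 30 of 47 members below the control mean.

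Among enzymes of H3K4 methylation, Kdm5b stood out at passage 1. It encodes a JmjC demethylase that removes H3K4 di- and trimethylation (ENSMUSG00000042207, chromosome 1, 134560171 to 134635285, plus strand, GRCm38). Kdm5b was at 2.35, 2.40 and 2.09 FPKM in controls, against 3.89, 3.47, 4.75 and 4.59 in experimental libraries, so the groups did not overlap. The mean was 2.28 ± 0.165 against 4.17 ± 0.598 FPKM (SD, n = 3 and 4), a 1.57-fold rise (log2 change 0.65, SE 0.10, limma adjusted p = 0.00246). This was the single call of the 10 that held in each alternative that tested it (20 in all), with an adjusted p of at most 0.0393. At a minimum of 5 FPKM Kdm5b was too low to be tested. Its close relative Kdm5a was at 4.07 to 4.42 FPKM in controls and 4.11 to 5.54 in experimental libraries, and did not pass the test. The ratio of Kdm5b to Kdm5a within a library does not change with a single factor per library. It was 0.530, 0.569 and 0.514 in controls and 0.945, 0.774, 0.856 and 0.964 in experimental libraries. Kdm1a, the FAD-dependent H3K4 demethylase, lay at 45.7 to 46.6 FPKM in controls and 48.8 to 51.6 in experimental libraries without overlap (log2 change 0.12, adjusted p = 0.0564). The H3K4 methyltransferase genes Setd1a, Kmt2a and Kmt2d did not pass the test, with log2 changes whose median was 0.067. Of them Kmt2d did not overlap, at 5.83 to 6.29 FPKM in controls and 6.34 to 7.62 in experimental libraries (adjusted p = 0.075).

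The oxygen-dependent H3K9 demethylase gene Kdm3a (ENSMUSG00000053470, chromosome 6, 71588972 to 71632990, minus strand) was the other JmjC gene that rose. It was at 7.97, 8.11 and 7.78 FPKM in controls, against 10.5, 9.5, 14.5 and 14.0 in experimental libraries. All 4 experimental values lay above the controls, and libraries 3 and 4 lay above libraries 1 and 2. The means were 7.95 ± 0.166 and 12.1 ± 2.5 FPKM (SD, n = 3 and 4), a 1.45-fold rise (log2 change 0.53, SE 0.14, limma adjusted p = 0.0212). Experimental libraries 3 and 4 also had the lowest colon marker sums of the passage (8.11 and 84.8 FPKM). With the colon marker sum as a covariate the log2 change of Kdm3a was 0.34 (adjusted p = 0.0685), and without control 1, control 2, control 3 or experimental 4 the adjusted p was 0.0652, 0.0629, 0.072 or 0.0516. The ratio of Kdm3a to its paralogue Kdm3b was 1.75, 1.88 and 1.81 in controls and 2.42, 2.06, 2.73 and 3.23 in experimental libraries.

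Other H3K9 enzymes did not pass the test at passage 1. Kdm4b, which acts on H3K9 and H3K36 methylation, was at 7.30 to 7.47 FPKM in controls, against 8.34, 7.60, 11 and 8.37 in experimental libraries, without overlap but with library 3 apart from the rest. Kdm4a, Kdm4c and Kdm3b overlapped between the groups, as did the H3K9 methyltransferase genes Ehmt1, Ehmt2 and Suv39h1, whose median log2 change was 0.009. Summed FPKM of the 3 methyltransferase genes over that of the 5 demethylase genes was 1.65 to 1.68 in controls, 1.65 and 1.67 in experimental libraries 1 and 2, and 1.15 and 1.26 in libraries 3 and 4.

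Setd2, the H3K36 methyltransferase gene (ENSMUSG00000044791, chromosome 9, 110532597 to 110618633, plus strand), was at 8.12, 7.96 and 8.35 FPKM in controls, against 9.91, 10.5, 11.4 and 10.3 in experimental libraries. The groups were clearly apart, with little spread inside either. It rose 1.26-fold (log2 change 0.33, SE 0.06, limma adjusted p = 0.00402), from 8.14 ± 0.197 to 10.5 ± 0.617 FPKM (SD, n = 3 and 4). Kdm2a, a demethylase of H3K36, was at 4.19 to 4.21 FPKM in controls and 4.37 to 5.78 in experimental libraries without overlap, and did not pass the test. Kdm2b, its paralogue, at 4.66 to 4.92 and 4.82 to 5.59 FPKM, and Dot1l, the H3K79 methyltransferase gene, at 17.8 to 19.6 and 17.4 to 19.5 FPKM, overlapped between the groups.

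The stretches upstream of Kdm5b and Setd2 are printed to show what lies before the start sites of a demethylase and a methyltransferase gene that rose together. Each is 250 bases before the RefSeq start site, 5′ to 3′ on the gene's strand, from the RefSeq promoter table of GRCm38.p6. Capitals mark ACGTG or GCGTG, the core letters of the hypoxia response element bound by HIF, searched on both strands.
Kdm5b, chr1:134559928-134560177, plus strand: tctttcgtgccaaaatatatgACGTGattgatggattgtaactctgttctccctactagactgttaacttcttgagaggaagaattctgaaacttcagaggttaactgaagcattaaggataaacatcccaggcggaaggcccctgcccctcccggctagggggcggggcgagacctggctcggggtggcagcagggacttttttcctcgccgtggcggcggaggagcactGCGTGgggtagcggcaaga
Setd2, chr9:110532347-110532596, plus strand: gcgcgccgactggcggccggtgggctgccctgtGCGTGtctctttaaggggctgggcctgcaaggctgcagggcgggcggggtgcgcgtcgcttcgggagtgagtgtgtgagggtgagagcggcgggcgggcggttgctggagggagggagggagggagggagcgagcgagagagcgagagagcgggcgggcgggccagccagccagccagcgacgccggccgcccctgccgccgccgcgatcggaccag
Matches began 229 and 19 bases before the start of Kdm5b and 217 bases before that of Setd2. Of all 32851 windows of the same length, 38.6% held at least 1 match, and of the 60 windows that belong to members, 48.3%. Counted by gene, 24 of the 41 members in the table had a window with a match (58.5%), against 41.5% of 27025 genes. Some genes have more than 1 window, which raises their chance of a match in the count by gene. A match was found for 4 of the 8 risen members with a window (50%). It was found for 5 of 9 that fell at passage 6 (55.6%) and 5 of 7 whose change was lower at passage 6 (71.4%). A match is a run of letters and says nothing of binding.

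Both large acetyltransferase genes rose at passage 1. Ep300 (ENSMUSG00000055024, chromosome 15, 81585351 to 81652077, plus strand) was at 6.11, 6.66 and 6.81 FPKM in controls, against 7.56, 9.04, 10.8 and 9.23 in experimental libraries, a 1.34-fold rise (log2 change 0.43, SE 0.10, limma adjusted p = 0.0164). Crebbp, its paralogue (ENSMUSG00000022521, chromosome 16, 4081328 to 4213997, minus strand), was at 3.56, 3.63 and 3.28 FPKM in controls, against 4.38, 5.32, 5.53 and 4.45 in experimental libraries. It rose 1.31-fold (log2 change 0.39, SE 0.08, limma adjusted p = 0.0108). Neither gene's groups overlapped. Without control 1 or control 2 the adjusted p of Ep300 was 0.067 or 0.0521, and without control 3 that of Crebbp was 0.0501. With the colon marker sum as a covariate the log2 change of Ep300 was 0.26 (adjusted p = 0.0352).

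The smaller acetyltransferase genes Kat2a and Kat2b, subunits of SAGA-type complexes, had estimates of the other sign. Kat2a was at 56.4, 57.2 and 58.1 FPKM in controls, against 52.3, 53.4, 41.4 and 43.2 in experimental libraries, below every control (log2 change -0.27, adjusted p = 0.0585). Kat2b was at 9.53 to 9.98 and 8.65 to 8.96 FPKM, also without overlap (adjusted p = 0.0506). Neither passed the test with limma. The summed FPKM of Ep300 and Crebbp over that of Kat2a and Kat2b was 0.146, 0.153 and 0.149 in controls and 0.196, 0.230, 0.326 and 0.262 in experimental libraries. Here too libraries 3 and 4 lay highest.

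Of the 13 deacetylase genes tested, 4 rose and 1 fell at passage 1. Among those that rose, 3 were class IIa genes, whose products shuttle between nucleus and cytoplasm and act with MEF2 factors. Hdac9 (chromosome 12, 34047580 to 34917095, minus strand) was at 2.37, 2.48 and 2.5 FPKM in controls, against 3.22, 3.89, 4.33 and 3.91 in experimental libraries. It rose 1.4-fold (log2 change 0.48, SE 0.08, limma adjusted p = 0.00444) with no overlap. Hdac7 was at 4.41, 4.40 and 4.49 FPKM in controls, against 6.66, 5.51, 5.97 and 5.85 in experimental libraries, a 1.29-fold rise (log2 change 0.36, SE 0.06, limma adjusted p = 0.00487). Its controls were within 0.1 FPKM of each other. Hdac4, the lowest of the class, was at 1.26, 1.36 and 1.34 FPKM in controls, against 1.69, 1.63, 2.12 and 1.94 in experimental libraries. It rose 1.22-fold (log2 change 0.29, SE 0.08, limma adjusted p = 0.0289), but its adjusted p was 0.102, 0.082, 0.0859 and 0.0708 without control 1, control 2, control 3 or experimental 4. With the colon marker sum as a covariate the log2 change of Hdac4 was 0.19 (adjusted p = 0.112).

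Hdac5, the most abundant class IIa gene by FPKM, had a negative estimate. It was at 16.0, 17.3 and 16.7 FPKM in controls, against 12.6, 11.9, 15.9 and 14.5 in experimental libraries, all 4 below every control (log2 change -0.27, adjusted p = 0.0587). Within a library, summed Hdac4, Hdac7 and Hdac9 over Hdac5 gave 0.504, 0.476 and 0.50 in controls and 0.918, 0.931, 0.784 and 0.809 in experimental libraries. The 2 groups did not overlap in this ratio, which does not change with a single factor per library.

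Hdac1, the catalytic subunit of the nuclear corepressor complexes NuRD, Sin3 and CoREST, was at 32.8, 31.8 and 33.1 FPKM in controls, against 41.3, 39.2, 35.8 and 36.4 in experimental libraries. It rose 1.17-fold (log2 change 0.22, SE 0.06, limma adjusted p = 0.0226) without overlap, and its adjusted p was 0.0726, 0.0922 and 0.0678 without control 1, 2 or 3. Its partner Hdac2 did not pass the test and was at 52.8, 55.1 and 55.7 FPKM in controls and 52.7, 53.8, 44.3 and 53.0 in experimental libraries, with library 3 well below the rest. The ratio of Hdac1 to Hdac2 was 0.621, 0.577 and 0.594 in controls and 0.784, 0.727, 0.809 and 0.688 in experimental libraries. Hdac3, Hdac6, Hdac10 and Hdac11 did not pass the test. Hdac11, the only class IV enzyme, was at 8.27 to 9.12 FPKM in controls and lay on both sides of them in experimental libraries, at 7.28, 5.95, 11.5 and 10.1. Hdac10 was at 5.33 to 5.86 FPKM in controls, against 5.35 and 4.89 in experimental libraries 1 and 2 but 3.48 and 3.65 in libraries 3 and 4.

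Sirt6, an NAD+-dependent deacetylase of H3K9 and H3K56 acetylation (ENSMUSG00000034748, chromosome 10, 81621785 to 81627797, minus strand), was the member that fell at passage 1. It was at 8.70, 9.07 and 9.89 FPKM in controls, against 7.82, 7.82, 7.35 and 7.27 in experimental libraries, without overlap. The change was 1.19-fold (log2 change -0.25, SE 0.06, limma adjusted p = 0.013), and its adjusted p was 0.0624 without control 3. Sirt1, at 8.83 to 9.36 and 9.52 to 10.6 FPKM, was higher in every experimental library but did not pass the test (adjusted p = 0.0737).

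**Figure D2:**
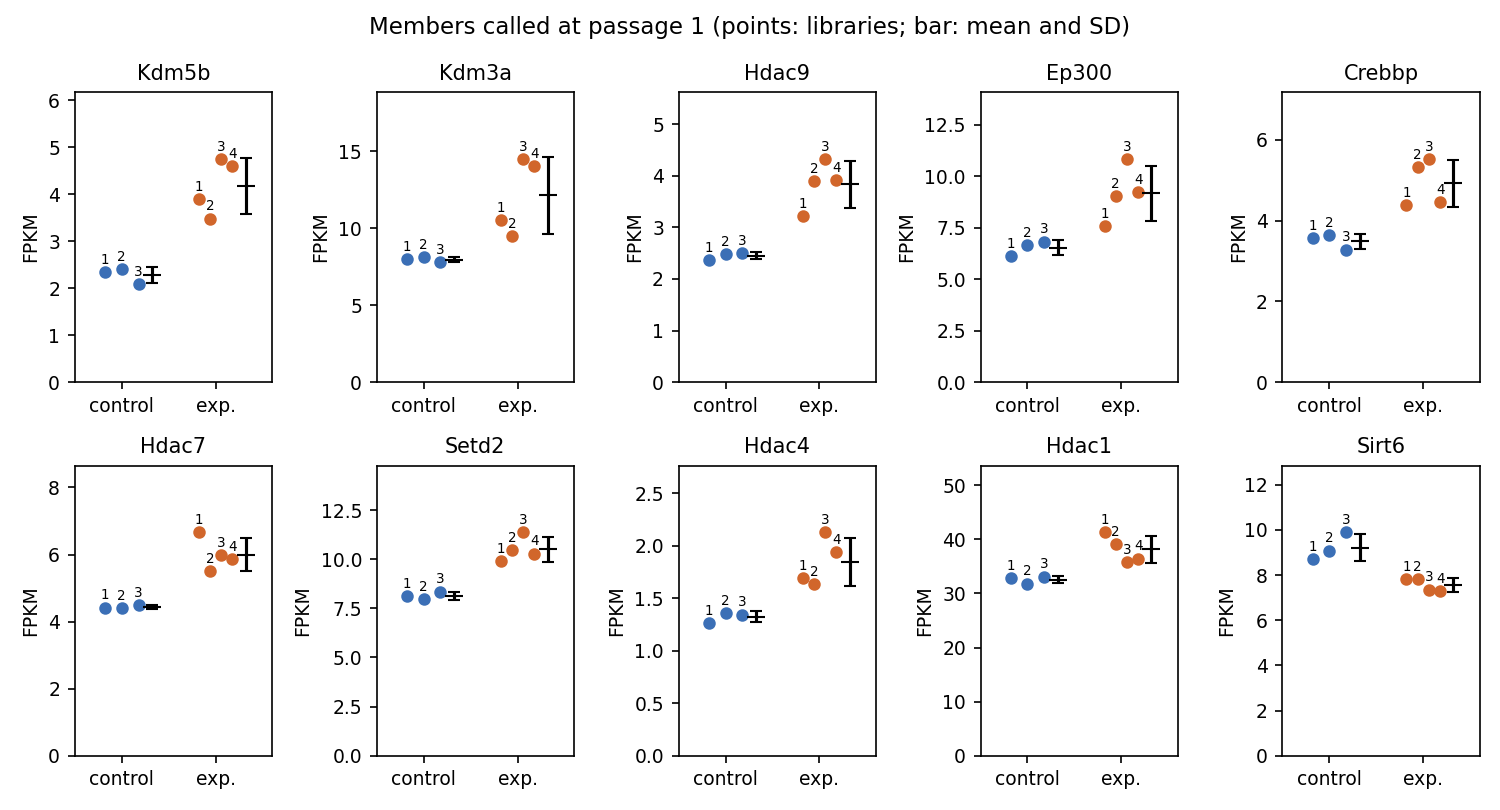
FPKM of the 10 members that changed at passage 1, with 1 point per library (numbered) and the mean with SD beside each group. All axes start at 0. The 4 experimental points lie above the 3 controls in 9 panels and below them for Sirt6.

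No DNA methylation enzyme and no PRC2 subunit passed the test at passage 1 with limma, and 1 of these 10 tested genes, Dnmt3a, had an unadjusted p under 0.05. Dnmt3a, a de novo methyltransferase gene, was at 5.50 to 5.90 FPKM in controls and 4.67 to 5.21 in experimental libraries (log2 change -0.16, adjusted p = 0.0571). The replication-linked genes varied among the experimental libraries. Uhrf1 was at 52.9 to 53.3 FPKM in controls, against 60.1, 68.1, 49.4 and 54.6 in experimental libraries. Ezh2, the main catalytic subunit of PRC2, was at 18.8 to 19.9 FPKM and at 23.6, 23.8, 18.1 and 20.3. Experimental libraries 1 and 2 were the high ones for both, and they also had the highest summed FPKM of 16 proliferation genes (908 and 986, against 756 and 852 in libraries 3 and 4 and 787 to 796 in controls). Whether this bears on Uhrf1 and Ezh2 was not tested. Ezh1, the catalytic subunit of PRC2 in non-dividing cells, was at 3.32 to 3.81 FPKM in controls and 2.48 to 3.25 in experimental libraries, below without overlap. Eed and Suz12 overlapped between the groups. Kdm6b and Kdm7a, which remove H3K27 methylation, were highest in experimental library 3 (19.0 and 6.55 FPKM), and their experimental values lay on both sides of the controls.

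Several passage 1 calls were lost without any 1 of the controls, and so were many over all genes. Over all genes, 1434 rose and 2358 fell with all libraries. Without control 1, 2 or 3 these counts were 854 and 1229, 853 and 1200, or 830 and 1257. Without control 1, 2 or 3 the number of members called was 6, 6 or 5 in place of 10. By contrast, without experimental 1, 2 or 3 it was 12, 12 or 13 with all 10 kept, and without experimental 4 it was 9 with 8 kept. Of all genes, 1365, 1568, 1501 or 1064 rose and 2247, 2501, 2394 or 1786 fell without experimental 1, 2, 3 or 4. With only the libraries in which 8 or more cartilage markers reached 1 FPKM (controls 2 and 3 and experimental 1 to 3), 1 member was called, Kdm5b. Over all genes, 433 rose and 543 fell in that fit.

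At passage 6 the members that changed were all lower in the experimental cells. The 10 that fell were Tet2 and Tet3, the PRC2 genes Ezh2 and Suz12, the demethylase gene Kdm7a, the H3K4 methyltransferase gene Kmt2a, and the deacetylase genes Hdac2, Hdac5, Hdac10 and Sirt6. They are 21.3% of the 47 members tested, against 10.8% of all 12458 genes that fell. None rose with limma, against 8.98% of all genes, and 19.8% of all genes changed in either direction. At an unadjusted p under 0.05, 2 members were higher (Hdac9 and Sirt2) and 19 lower. The share of all genes at that threshold was not counted, so these 2 counts have nothing to be set against. The median log2 change was -0.122 over the members and -0.035 over all genes.

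Scaling moved this balance too. Of all calls at passage 6, 45.5% were higher with the deposited values, 52% with equal FPKM totals, 53.3% after quantile normalization and 57.6% after median-of-ratios scaling. The members' counts were then 0 higher and 9 lower, 2 and 9, and 1 and 9, and 9 of the 10 calls held in each (Tet3 did not). The risen members were Sirt2 (median-of-ratios and quantile) and Hdac9 (quantile). Median-of-ratios scaling moved the median of all genes by less than 0.1 at either passage.

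The experimental values lay below all controls for 22 of the 47 members tested (46.8%), against 24.3% of all genes, and above all controls for 3 (6.38%; Hdac1, Hdac9 and Sirt2), against 17.4%. Hdac9 was at 1.85, 1.87 and 2.05 FPKM in controls and 2.47, 2.39 and 2.17 in experimental libraries, so it stayed on the higher side where it had been at passage 1, without passing the test (adjusted p = 0.104). At passage 1 they lay below for 6 (12.8%, against 26.9%) and above for 14 (29.8%, against 15.8%).

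Both tested TET genes fell at passage 6. Tet2 (ENSMUSG00000040943, chromosome 3, 133463679 to 133545139, minus strand) was at 2.39, 2.32 and 2.23 FPKM in controls, against 1.68, 1.41 and 1.72 in experimental libraries. That is a 1.27-fold change (log2 change -0.35, SE 0.08, limma adjusted p = 0.023). Tet3, also an oxidase of 5-methylcytosine, was at 6.52, 6.37 and 6.56 FPKM in controls, against 5.46, 4.97 and 5.78 in experimental libraries. It fell 1.17-fold (log2 change -0.23, SE 0.06, limma adjusted p = 0.0455). Neither gene's groups overlapped. The call of Tet2 held in 12 of 19 alternatives and that of Tet3 in 9 of 20. Neither call held with the colon marker sum as a covariate, with the replicate block, without a filter or without any 1 of the controls. Tet1 was listed at 0.0203 to 0.0571 FPKM in controls and 0.0919 to 0.15 in experimental libraries, too low to test. The writers Dnmt1, Dnmt3a, Dnmt3b and Uhrf1 did not pass the test, and their median log2 change was -0.121. Summed FPKM of the 3 Dnmt genes over the 3 Tet genes was 6.33, 6.42 and 6.24 in controls and 6.67, 8.10 and 7.42 in experimental libraries. The high ratios, 8.10 and 7.42, came from the libraries with liver and brain transcripts, and the part of these transcripts was not tested. At passage 1 the groups overlapped in this ratio (7.05 to 7.59 and 6.16 to 8.36).

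Of the 6 H3K27 enzymes 3 fell at passage 6, the writers Suz12 and Ezh2 and the eraser Kdm7a. Suz12, a core PRC2 subunit needed for its activity (ENSMUSG00000017548, chromosome 11, 79993106 to 80034123, plus strand), was at 12.6, 12.4 and 13.1 FPKM in controls, against 10.95, 8.82 and 9.04 in experimental libraries. It fell 1.3-fold (log2 change -0.38, SE 0.08, limma adjusted p = 0.0205). Ezh2 was at 13, 12.6 and 12.5 FPKM in controls, against 11.2, 9.53 and 10.3 in experimental libraries, a 1.21-fold fall (log2 change -0.28, SE 0.06, limma adjusted p = 0.0263). For both genes experimental libraries 2 and 3 were lower than library 1. Ezh1 was at 2.62 to 2.95 FPKM in controls and 1.84 to 2.45 in experimental libraries, below without overlap as at passage 1 (adjusted p = 0.0901).

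The third core subunit gene, Eed, was at 11.3, 11.6 and 11.3 FPKM in controls, against 11.3, 7.27 and 7.62 in experimental libraries, so only libraries 2 and 3 were low (log2 change -0.37, adjusted p = 0.109). Those are the libraries with liver and brain transcripts (liver sums 196 and 157 FPKM) and with the lowest colon sums. Without both of them 1 experimental library is left, and the spread within groups is that of the controls alone, so no p-value is given. In that fit the log2 change of Suz12 was -0.20 and that of Ezh2 -0.17. With the colon marker sum as a covariate they were -0.155 and -0.156 (adjusted p = 0.239 and 0.288). Without control 1, 2 or 3 the adjusted p was 0.0737, 0.0702 or 0.0813 for Suz12 and 0.105, 0.0924 or 0.0864 for Ezh2. Without experimental 2 or 3 it was 0.0549 or 0.0633 and 0.0519 or 0.0674.

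Kdm7a encodes a JmjC demethylase of H3K9 and H3K27 dimethylation (ENSMUSG00000042599, chromosome 6, 39136623 to 39206789, minus strand). On the log2(FPKM + 1) scale, which makes changes of low genes such as Tet2 smaller, Kdm7a fell most. It was at 4.65, 4.31 and 4.60 FPKM in controls, against 3.07, 2.95 and 3.47 in experimental libraries. The change was 1.33-fold (log2 change -0.41, SE 0.07, limma adjusted p = 0.0102), with wide room between the groups. Kdm6b, the H3K27 trimethyl demethylase gene, was at 16.5, 16.2 and 16.0 FPKM in controls, against 10.9, 13.1 and 16.7 in experimental libraries, which spread too far to pass the test.

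Kmt2a, the H3K4 methyltransferase gene also called MLL1 (chromosome 9, 44803355 to 44881296, minus strand), was at 11.2, 10.8 and 10.7 FPKM in controls, against 8.12, 7.90 and 9.54 in experimental libraries. It fell 1.25-fold (log2 change -0.32, SE 0.07, limma adjusted p = 0.0244) with no overlap. Setd1a, another H3K4 methyltransferase gene, was at 31.3 to 31.9 FPKM in controls and 24.4, 29.2 and 28.3 in experimental libraries, also without overlap (log2 change -0.21, adjusted p = 0.0756). Kdm5b, which had risen at passage 1, was at 2.78, 3.01 and 2.80 FPKM in controls, against 2.62, 2.75 and 3.49 in experimental libraries, and the groups overlapped. Of the 12 other enzymes of H3K9, H3K36 and H3K79 methylation, Kdm7a apart, none passed the test with limma at passage 6. Among them Ehmt1, Suv39h1, Kdm2a and Dot1l had unadjusted p under 0.05, all with lower estimates.

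Sirt6 was the only member called at both passages, and it fell at both. At passage 6 it was at 9.41, 9.72 and 9.59 FPKM in controls, against 7.10, 7.82 and 7.20 in experimental libraries, a 1.26-fold fall (log2 change -0.34, SE 0.05, limma adjusted p = 0.00874). It also had the smallest adjusted p among the members at that passage. Its call ended only without control 2 (adjusted p = 0.0518). It held with the colon marker sum as a covariate, whereas the other 9 calls did not. Among these, the fall was larger with the covariate for Hdac5, Kdm7a and Kmt2a (log2 change -0.35, -0.45 and -0.40, limma adjusted p = 0.0549, 0.0605 and 0.0802). The fall was smaller for Suz12, Ezh2, Hdac2 and Hdac10. Sirt2, a mainly cytoplasmic deacetylase, was at 5.54 to 5.70 FPKM in controls, against 6.04, 7.46 and 7.22 in experimental libraries (log2 change 0.25, adjusted p = 0.0632). The high libraries were again 2 and 3, those with brain and myelin transcripts, and the part of these transcripts in the Sirt2 value was not tested.

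Among the classical deacetylases, Hdac5 was at 21.3, 21.4 and 21.5 FPKM in controls, against 16.6, 18.2 and 16.1 in experimental libraries. It fell 1.25-fold (log2 change -0.32, SE 0.06, limma adjusted p = 0.011). Hdac10, a class IIb enzyme known as a polyamine deacetylase, was at 9.07, 10.1 and 9.43 FPKM and at 8.03, 7.21 and 7.59, a 1.22-fold fall (log2 change -0.29, SE 0.06, limma adjusted p = 0.0202). Hdac2 was at 31.9, 30.7 and 30.9 FPKM in controls, against 27.6, 26.0 and 26.4 in experimental libraries, a 1.16-fold fall (log2 change -0.22, SE 0.05, limma adjusted p = 0.019). In none of the 3 did the groups overlap. With the colon marker sum as a covariate the log2 change of Hdac10 was -0.18 (adjusted p = 0.224).

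Both deacetylase ratios kept their order at passage 6. The ratios are a description, chosen after values were seen. Hdac1 to Hdac2 was 0.651, 0.671 and 0.693 in controls and 0.777, 0.862 and 0.816 in experimental libraries, higher without overlap as at passage 1. Summed Hdac4, Hdac7 and Hdac9 over Hdac5 was 0.406, 0.409 and 0.421 in controls and 0.565, 0.534 and 0.576 in experimental libraries, likewise without overlap. By contrast the ratio of Ep300 and Crebbp to Kat2a and Kat2b overlapped at passage 6 (0.222 to 0.239 and 0.213 to 0.285), as did Kdm5b to Kdm5a (0.575 to 0.648 and 0.583 to 0.791).

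**Figure D3:**
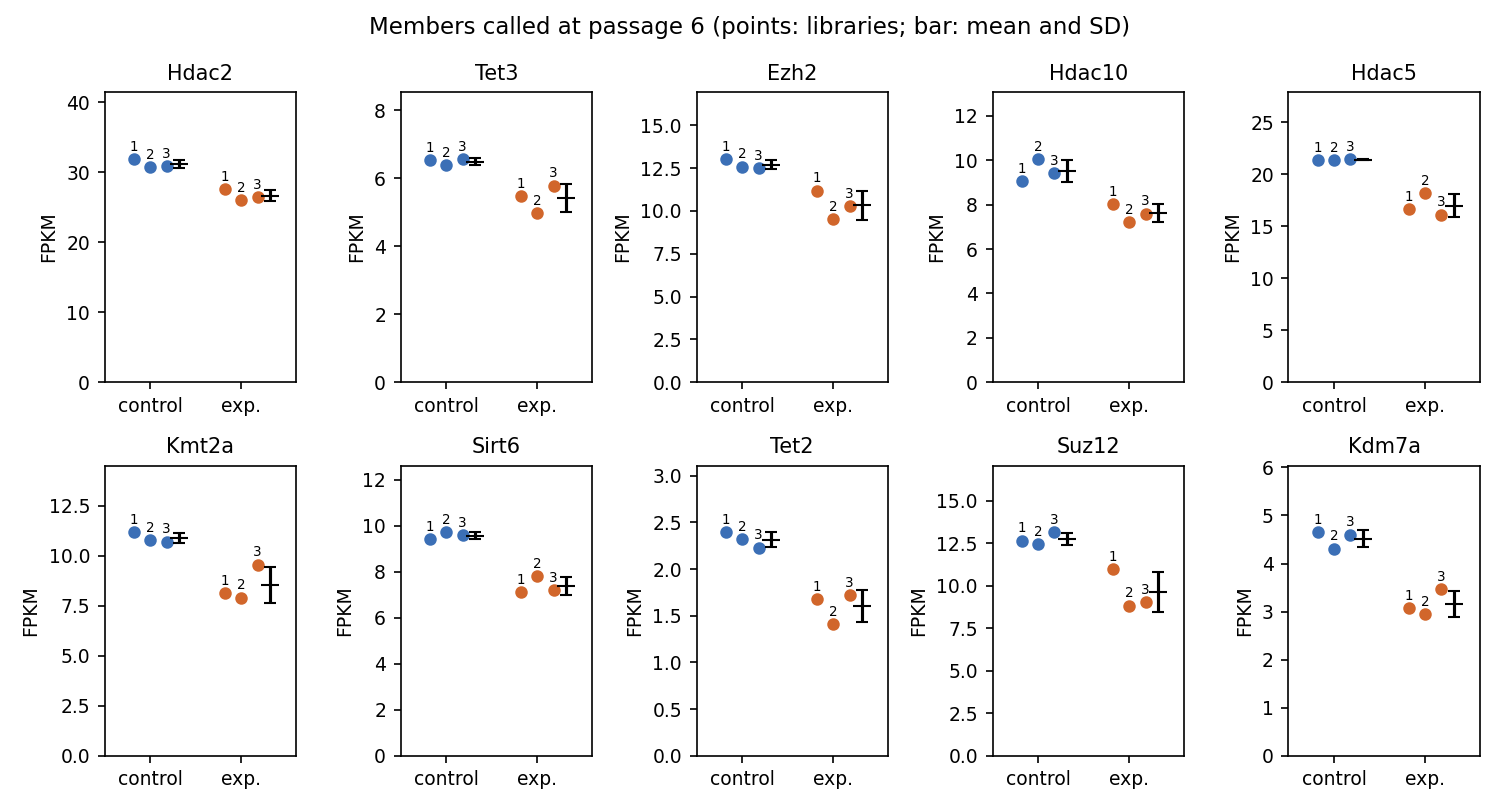
FPKM of the 10 members that changed at passage 6, drawn as for passage 1. Every experimental point lies below the 3 controls. Experimental library 1 lies nearest to the controls for Suz12, Ezh2, Hdac10 and Hdac2, and library 3 for Kmt2a, Kdm7a, Tet2 and Tet3.

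Most passage 6 calls were lost without any 1 of the controls, over all genes as well as among the members. Over all genes, 1119 rose and 1343 fell with all libraries. Without control 1, 2 or 3 these counts were 403 and 364, 379 and 291, or 400 and 349. Among the members little was left. Without control 1 or control 3 a single member was called, Sirt6, and without control 2 a single one, Kdm7a. The direction of all 10 was lower in each of these fits. Without experimental 2 the count was 6 and without experimental 1 it was 15, with all 10 named calls kept. In these fits 855 and 1846 of all genes rose and 853 and 2411 fell. With the colon marker sum as a covariate 3 members were called, of which 1 was among the 10. Over all genes, 473 rose and 452 fell with that covariate. Without both libraries that carry liver transcripts 1 experimental library was left, so no count is given. In that fit the log2 change was -0.17 for Hdac2, -0.34 for Hdac5, -0.44 for Kdm7a and -0.38 for Kmt2a. It was -0.38 for Sirt6 and -0.22 for Hdac10.

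The changes at the 2 passages were then compared directly. For 8 members the change at passage 6 was lower than that at passage 1, which is 17% of 47, against 6.27% of 13019 genes. None had a higher change with limma, against 8.46% of genes (14.7% differed in either direction), and 1 member, Kat2a, at an unadjusted p under 0.05 did. The median difference over the members was -0.211 on the log2 scale and 0.016 over all genes. The tables of the passages were deposited separately, so only changes within a passage enter this comparison.

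The demethylase genes made up 4 of the 8. Kdm5b changed by 0.65 at passage 1 and by 0.03 at passage 6 on the log2 scale, a difference of -0.63 (SE 0.14, limma adjusted p = 0.0129). Kdm3a changed by 0.53 and -0.09, a difference of -0.63 (SE 0.17, limma adjusted p = 0.0259). At passage 6 Kdm3a was at 8.07, 8.32 and 8.66 FPKM in controls, against 7.64, 7.5 and 8.15 in experimental libraries, so the rise seen at passage 1 was not there. Kdm2a differed by -0.41 (SE 0.11, limma adjusted p = 0.0321): it was at 4.19, 4.21 and 4.20 against 4.37, 4.47, 5.78 and 4.99 FPKM at passage 1, and at 4.97, 4.69 and 4.56 against 3.67, 3.74 and 4.28 at passage 6. Its experimental values lay above every control at the first passage and below every control at the other. The same crossing held for Kdm1a, with a difference of -0.24 (SE 0.06, limma adjusted p = 0.0151). It was at 46.6, 46.3 and 45.7 against 51.6, 48.8, 50.5 and 49.7 FPKM at passage 1, and at 34.1, 33.8 and 33.5 against 32.2, 30.6 and 30.0 at passage 6.

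Sirt1, the NAD+-dependent deacetylase of histones and p53, crossed in the same way. It was at 8.83, 9.36 and 8.88 against 9.97, 10.0, 9.52 and 10.6 FPKM at passage 1, and at 10.9, 10.5 and 10.2 against 8.92, 9.18 and 9.91 at passage 6, a difference of -0.30 (SE 0.07, limma adjusted p = 0.019). Neither change of Sirt1, Kdm1a or Kdm2a passed the test within a passage, and only the difference did. Hdac7 differed by -0.34 (SE 0.08, limma adjusted p = 0.0147) and was back among the controls at passage 6, at 5.48, 5.44 and 5.57 against 5.52, 5.78 and 5.46 FPKM. Ezh2 differed by -0.42 (SE 0.12, limma adjusted p = 0.0399) and Tet3 by -0.29 (SE 0.08, limma adjusted p = 0.0364). For Ep300 and Crebbp, which had risen at passage 1, the differences of -0.37 and -0.39 did not pass the test (adjusted p = 0.118 and 0.101).

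**Figure D4:**
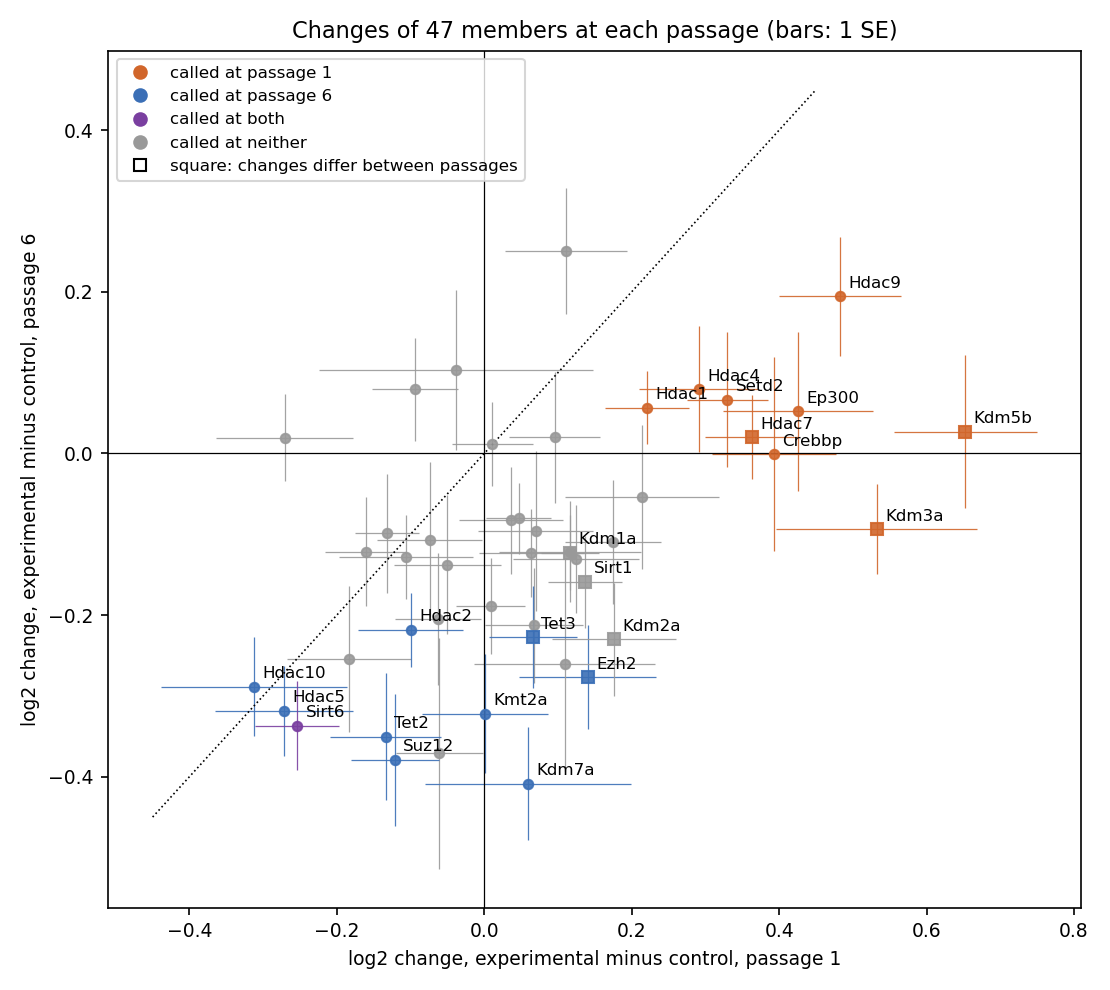
Log2 change at passage 1 (horizontal) and passage 6 (vertical) for the 47 members tested, with bars of 1 SE and named points for members called at either passage or in the difference. Of the 47 points, 20 lie in the quadrant of positive change at passage 1 and negative at passage 6, and Sirt6 lies in the lower left.

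These differences varied in how much they rested on single libraries. Over all genes, 816 changes were called lower with all libraries, against 484, 514 or 464 without passage 1 control 1, 2 or 3. Kdm5b, Hdac7 and Kdm1a stayed under 0.05 whichever single library was left out. Sirt1 was at 0.053, 0.0513 and 0.0552 without passage 1 control 1, passage 1 control 3 and passage 6 control 1. Ezh2, Kdm2a, Kdm3a and Tet3 went over 0.05 without several libraries each, with adjusted p of 0.0549 to 0.0931 without passage 1 control 1 or 3. The number of differences was 3 without passage 1 control 1 or 3, 4 without passage 1 control 2, without any 1 passage 6 control or without passage 6 experimental 2, and 13 without passage 6 experimental 3. Of all genes, 449, 467 or 479 had a lower change without passage 6 control 1, 2 or 3. That number was 534 without passage 6 experimental 2 and 834 without passage 6 experimental 3. Without both libraries with liver transcripts 1 passage 6 experimental library was left, so no count is given.

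Partner subunits and other enzymes of the same pathways (131 genes listed by function, 130 found) gave a context for the members. At passage 1, 14 rose and 17 fell of 121 tested (11.6% and 14%), and at passage 6, 4 rose and 16 fell of 120 (3.33% and 13.3%). Over all genes tested the shares were 11.5% and 18.9%, then 8.98% and 10.8%. Subunits of deacetylase complexes counted 5 higher and 3 lower of 22 at passage 1. Among them Sap30, a Sin3 complex subunit, rose from 39.8 ± 1.25 to 53.2 ± 3.99 FPKM (SD, n = 3 and 4, 1.32-fold, limma adjusted p = 0.00301) and the NuRD subunit gene Gatad2b 1.29-fold, while the NCoR subunit gene Gps2 fell 1.29-fold. Polycomb partners counted 3 higher and 4 lower of 22 at passage 1, with Cbx2, a reader of H3K27 methylation, lower at 17.1 ± 1.13 against 24.8 ± 0.634 FPKM (SD, n = 4 and 3, 1.43-fold, limma adjusted p = 0.000862). At passage 6 they counted 2 higher and 6 lower of 21. Pcgf1, a subunit of a variant PRC1 complex, fell at both passages (1.42- and 1.31-fold).

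Other histone demethylases counted 1 higher and 3 lower of 11 at passage 1 and 1 of each direction at passage 6. Kdm8 and Riox2 fell 1.42- and 1.32-fold at passage 1. Phf8, which acts on H3K9 dimethylation, was the gene of this list that rose, at both passages. It went from 4.25 ± 0.246 to 5.95 ± 0.245 FPKM at passage 1 (SD, n = 3 and 4). At passage 6 it went from 3.04 ± 0.17 to 4.92 ± 0.342 FPKM (SD, n = 3 and 3). Its folds were 1.32 and 1.46 (limma adjusted p = 0.00191 and 0.0039), whereas Kdm7a, the 1 member demethylase that changed at passage 6, fell. Other acetyltransferases and sirtuins counted 1 higher and 3 lower of 15 at passage 1, then 0 higher and 3 lower. Sirt7, a nucleolar relative of Sirt6, fell at both passages, 1.27- and 1.24-fold. The mitochondrial Sirt4 fell 1.43-fold and the acetyltransferase gene Kat5 1.19-fold at passage 1. Other histone methyltransferases counted 1 higher and 3 lower of 26 at passage 1 and 0 higher and 4 lower at passage 6. Other DNA methylation genes counted 1 of each direction of 14, then 0 higher and 1 lower. Subunits of H3K4 methyltransferase complexes counted 2 higher and 0 lower of 11, then 1 and 0.

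The members that rose at passage 1 were mostly long transcripts. Their merged exons had a median of 13540 bases (3445 to 16555), against 5823 for members not called and 2785 for Sirt6, which fell. Of the 9, 7 were among the 20 members with at least 8000 exonic bases. Across the 47 members, log2 length and log2 change at passage 1 had a Pearson r of 0.442 and a Spearman rho of 0.353, against 0.0694 and 0.117 across all genes. Genes share libraries and are not independent, so no test is given. In the length class of 8000 bases or more, 14.7% of all genes rose and 12.3% fell. In the class of 2000 to 4000 bases 10.2% rose and 23.6% fell. At passage 6 r was 0.0407 across the members, and the 10 that fell had a median of 7729 bases against 6795 for those not called. The part of transcript length in the passage 1 result was not tested.

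**Figure D5:**
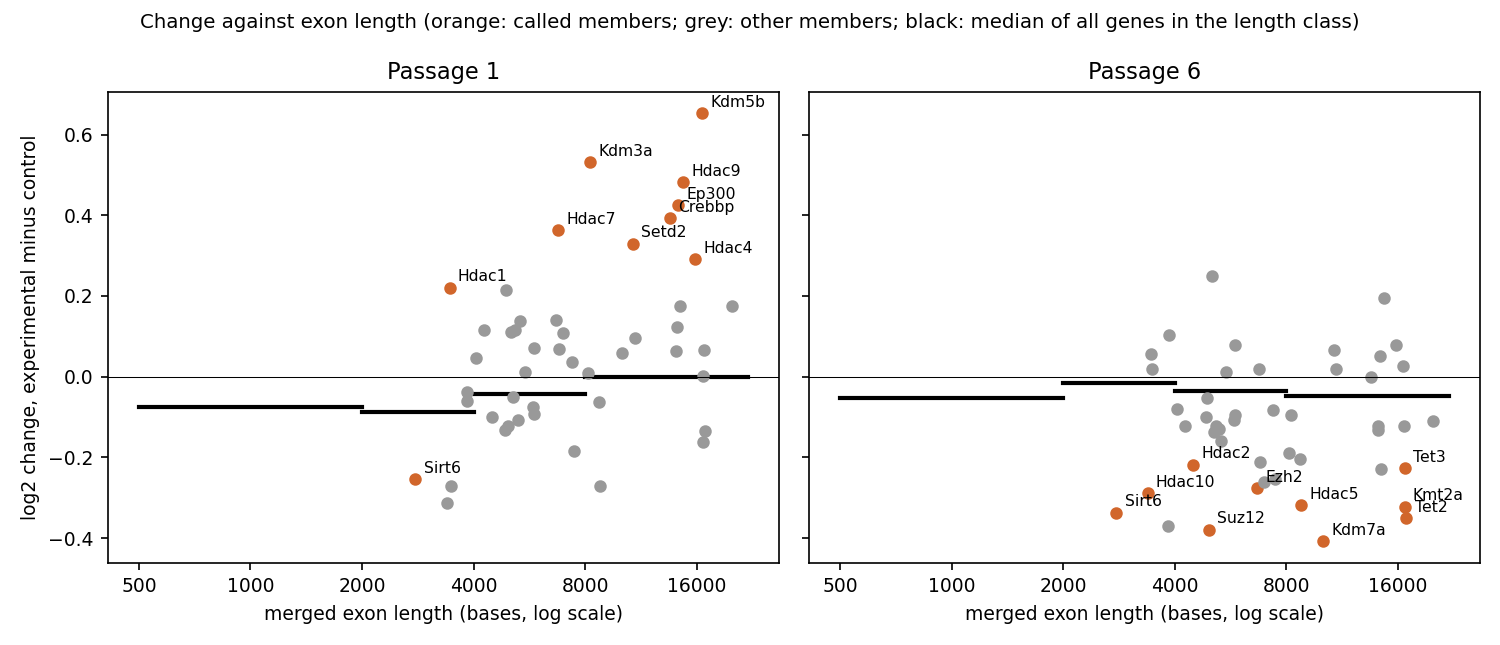
Log2 change against merged exon length (log axis) for the members at each passage, with called members in orange and the median of all genes per length class in black. At passage 1 most orange points above 0 lie at 8000 bases or more, and at passage 6 the orange points, all below 0, spread over the whole range of lengths.

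Exons of 18 members overlap exons of a gene on the other strand, Hdac7, Hdac4, Tet2, Ezh2, Suz12, Eed, Kdm7a, Kmt2a, Sirt1 and Sirt2 among them. The libraries were stranded per the labels, but whether counting used the strand is not given in the sources used here, so reads of such a pair cannot be told apart. Kdm5b, Kdm3a, Setd2, Hdac1, Hdac9, Crebbp, Sirt6, Hdac2 and Tet3 have no such overlap in the annotation.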

How the data were processed

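Poly(A) RNA of Neuro2a cells was sequenced in 13 libraries. The authors deposited FPKM in 1 table per passage, made with cutadapt, HISAT2, StringTie, DESeq2 and edgeR on mm10 per the submitters' processing notes, which give no versions. How FPKM were scaled between libraries is not given in the sources used here. Depth is unknown, so the spread between libraries sets the precision.

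Log2(FPKM + 1) was fitted with limma 3.58.1 in R 4.3.3 (intensity trend, equal weights), separately for each passage, over genes that reached 1 FPKM in 3 or more libraries. Two-sided p-values were adjusted over all genes (Benjamini-Hochberg), with a threshold of 0.05. The difference between passages was a contrast over 13 libraries. A gene with an empty cell was left out. Of the identifiers, 34731 had a symbol. The fits were tested on simulated data. A check of the line's identity markers is not reported here.

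The members and lists were chosen with earlier results of these data known. Genes are named under this rule: every member that passed the test, other members as values, and up to 3 related genes per list and passage. Per-library values of members that did not pass the test, and ratios between members, were chosen after their values were seen. Alternatives were pseudocounts, filters, scalings, limma settings, array weights, a colon covariate, a replicate block and leaving out libraries. Exon lengths and coordinates are from GENCODE on GRCm38, and figures were made with matplotlib 3.10.9.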

Additional observations from a re-analysis of the deposited data

Results flagged for a closer look

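Of the 49 members, each was checked in the 4 passage 1 experimental libraries for a library far from the others, and 1 had one. Hdac2 was at 44.3 FPKM in experimental library 3, against 52.7, 53.8 and 53.0 FPKM in the others. Chance marks about 1 in 20 groups, so 1 of 49 is no more than chance gives.

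The changes of 8 members differed between the passages by limma's test of the difference itself, given above with its errors. The difference, passage 6 minus passage 1 on the log2 scale, was -0.63 for Kdm3a, -0.63 for Kdm5b, -0.42 for Ezh2, -0.41 for Kdm2a, -0.34 for Hdac7, -0.30 for Sirt1, -0.29 for Tet3 and -0.24 for Kdm1a.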

How the results depend on the processing

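No call on a member reversed under any alternative, and of the calls 1 of 10 at passage 1 (Kdm5b), 0 of 10 at passage 6 and 0 of 8 between passages held in each one that tested the gene (Kdm5b was not tested at a minimum of 5 FPKM). At passage 1 the 10 members changed became 17 with array weights, 1 with only the libraries that hold cartilage transcripts (1 higher, 0 lower) and 6 with the replicate block (0 lower). Calls over all genes moved as well. They went from 1434 higher and 2358 lower to 1933 and 3095, 433 and 543, and 717 and 1120 in these fits. The 9 higher members became 5 with a minimum of 5 FPKM, which tests 34 members, and 1055 of 7835 genes were higher there. The 1 lower member became 5 in a fit over both passages, 6 with array weights, and 2 with the colon covariate, a minimum of 5 FPKM, no filter, a pseudocount of 0.1 or quantile normalization. The lower calls over all genes were 2622, 3095, 2041, 1572, 1893, 2324 and 1816 in these fits, against 2358. At passage 6 the 10 changed, all lower, became 3 with the colon covariate, 4 without a filter and 5 with the replicate block. All-gene calls went from 1119 higher and 1343 lower to 473 and 452, 641 and 645, and 695 and 743. The 0 higher members became 1 with array weights or median-of-ratios scaling and 2 with quantile normalization. The 8 differences between passages, all smaller, became 13 with array weights (1 larger), 4 without a filter and 0 with the replicate block. All-gene differences went from 1102 larger and 816 smaller to 1770 and 1422, 732 and 453, and 452 and 281. Leaving out each library in turn gave 5 to 13 members changed at passage 1 (5 to 11 higher, 0 to 3 lower), 1 to 15 at passage 6 (0 to 2 higher, 1 to 13 lower) and 3 to 13 differences (0 to 1 larger, 3 to 13 smaller). Fewer libraries or more genes tested enter some of these fits. Otherwise the cause was not tested. For libraries with the same replicate number, deviations from the group mean had r = 0.102, -0.212 and 0.193 at passage 1. At passage 6 r was -0.0636, -0.0532 and 0.0185. Not every library correlated best with its own number. With so few libraries this cannot exclude a shared vial, day or batch, and the labels state no pairing. The depth of the libraries is unknown, so limits of detection for Tet1 and Hdac8 cannot be given.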
